A study of Danio rerio with 2 samples.

Results

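This report describes 35 cell cycle genes, 14 that act in S phase and 21 that act in G2 phase and mitosis (M), among the 25432 genes counted in single cells of zebrafish embryos. The genes were chosen by symbol from what they are known to do, but with earlier results of these data known. All 35 symbols were found. *rrm2* and *ube2c* each had 2 rows with different Ensembl identifiers, which makes 37 rows, and reads may have been split between such rows. The S list holds the replication clamp, the helicase and its partners, nucleotide synthesis and related genes. The G2 and M list holds the kinases and cyclins of mitosis, spindle and kinetochore genes and the genes that end mitosis.

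The sorted cells came from embryos at 36 hours post fertilisation (hpf), with 1 library of *mgat4b* mutant cells and 1 library of control cells. In both groups a plasmid with Cas9 and GFP, each under the *mitfa* promoter, had been injected at the 1-cell stage. The mutant embryos received it with sgRNAs against *mgat4b*, which encodes a glycosyltransferase of *N*-glycans, and the control embryos with nontargeting sgRNAs. GFP-positive cells were sorted and their transcripts counted as unique molecular identifiers (UMIs) by droplet 3′ sequencing. The labels name no other treatment, and the age was the same. The paper's general methods name phenylthiourea in the embryo water, to keep melanin from hiding GFP. They do not say whether these embryos received it. The embryos were injected animals and not a stable line, so the mutation is mosaic, and *mitfa* is active in pigment cell progenitors. The number of embryos in each library is not given in the sources used here.

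The mutant library held 3860 passing cells with a median of 6480 UMIs, and the control library 1771 cells with a median of 4919 UMIs. Cells under 1000 UMIs made up 9.22% of mutant cells and 30.2% of control cells, so the control library had a larger shallow tail. The libraries shared 2 cell barcodes. *mgat4b* reached 64.3 CPM (counts per fixed number of UMIs in passing cells) in the mutant and 80.8 CPM in the control, a ratio of 0.796 (0.743 to 0.854). The labels call the cells melanocytes, but by marker genes 17 mutant cells and 3 control cells were melanophore-like. Most cells that could be named carried markers of skin, nerve, connective tissue or other pigment classes. Class names here are therefore given as "X-like", from marker genes alone. With 1 library per group no test of the conditions is possible and no p-value is given. Every interval is at the 95% level and covers counting error only, not the spread between embryos or libraries.

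A dividing cell copies its DNA in S phase, passes through G2, and separates the copies in M. Genes for replication are switched on by E2F factors before and during S phase, and genes for mitosis follow later, so a cell that holds RNA of one set often stands at another point of the cycle than a cell that holds the other. In the embryo, progenitors of the retina and nervous system divide fast, while a neuron is formed from a last division and does not divide again. Skin of the embryo has a basal layer and an outer layer, the periderm.

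The first comparison asked whether the members differed in level between the libraries over all cells. Neither list did by much. The S members summed to 820 CPM (810 to 830) in the mutant and 899 CPM (884 to 913) in the control, a ratio of 0.913 (0.894 to 0.931). The G2 and M members summed to 1509 CPM (1495 to 1523) in the mutant and 1584 CPM (1565 to 1603) in the control, a ratio of 0.952 (0.938 to 0.967). Both lists lay at or above the middle of all genes. The median log2 ratio was -0.03 for the S rows and -0.13 for the G2 and M rows, against -0.15 for all 18119 genes with at least 50 UMIs. With TMM scaling, which moves the library totals towards that middle, the ratios were 1.01 (0.987 to 1.03) for S and 1.05 (1.04 to 1.07) for G2 and M, so the direction of both lists turned with the scaling. In a summed level, fewer dividing cells, less RNA per dividing cell and an unlike mix of cell classes cannot be told apart. The mix did differ. Cells without a class name made up 26.2% of the mutant and 42.0% of the control library. Xanthophore-like cells made up 8.52% and 1.58%, and neuron-like cells 8.55% and 12.7%.

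All 37 rows had at least 50 UMIs, and none passed the size rule, which called a row higher or lower when it had 50 or more UMIs in all, differed 2-fold or more in CPM and had a counting interval that excluded 1. Of all genes tested 4.09% passed it as higher and 5.98% as lower. Intervals that excluded 1 were more common. They lay above 1 for 0 of 15 S rows and 1 of 22 G2 and M rows, and below 1 for 4 S rows and 9 G2 and M rows, while 19.1% of all genes had an interval above 1 and 38.9% one below 1. With TMM scaling the counts were 5 S rows above and 2 below, and 5 G2 and M rows above and 3 below.

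Of the replication genes, *pcna*, the sliding clamp that holds DNA polymerase on its template, had 236 CPM in the mutant and 238 CPM in the control. The helicase subunits *mcm2*, *mcm3*, *mcm4*, *mcm5* and *mcm6* had ratios from 0.943 (*mcm4*) to 1.04 (*mcm2*), and all of their intervals included 1. *mcm2* had 67.4 and 64.9 CPM in the mutant and the control, *mcm3* 39.3 and 40.0, *mcm4* 51.8 and 54.9, *mcm5* 52.4 and 55.4, and *mcm6* 60.7 and 62.2. The remaining subunit of the ring, *mcm7*, had 169 UMIs in the mutant and 164 UMIs in the control, which is 5.55 CPM against 9.60 CPM and a ratio of 0.578 (0.464 to 0.721). Its counts are low. Of the helicase partners, *cdc45* had 12.1 CPM in the mutant and 10.7 CPM in the control, with an interval that included 1, and *gins2* had 11.8 CPM against 14.1 CPM, a ratio of 0.838 (0.710 to 0.991). The TMM interval of *gins2* included 1.

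Ribonucleotide reductase makes the deoxynucleotides for DNA synthesis and has a large and a small subunit. The small subunit *rrm2* (ENSDARG00000078069) had 3240 UMIs in the mutant and 2795 UMIs in the control. This is 106 CPM in the mutant and 164 CPM in the control, a ratio of 0.651 (0.618 to 0.685), and 0.718 (0.682 to 0.755) with TMM scaling. Among the S rows only this row and *mcm7* had an interval below 1 under both scalings. The other *rrm2* row (ENSDARG00000020711) had 10.5 CPM in the mutant and 9.36 CPM in the control, with an interval that included 1. The large subunit *rrm1* had 67.0 CPM in the mutant and 76.5 CPM in the control, a ratio of 0.876 (0.817 to 0.940), and its TMM interval included 1. The last members of the list are *slbp*, which binds the stem-loop of histone mRNAs, *unga*, a uracil-DNA glycosylase, and *cdca7a*, a partner of chromatin remodelling. *slbp* had 52.6 CPM in the mutant and 55.5 CPM in the control, *unga* 14.1 against 13.4 and *cdca7a* 32.7 against 30.4, and all of their intervals included 1.

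**Figure D1:**
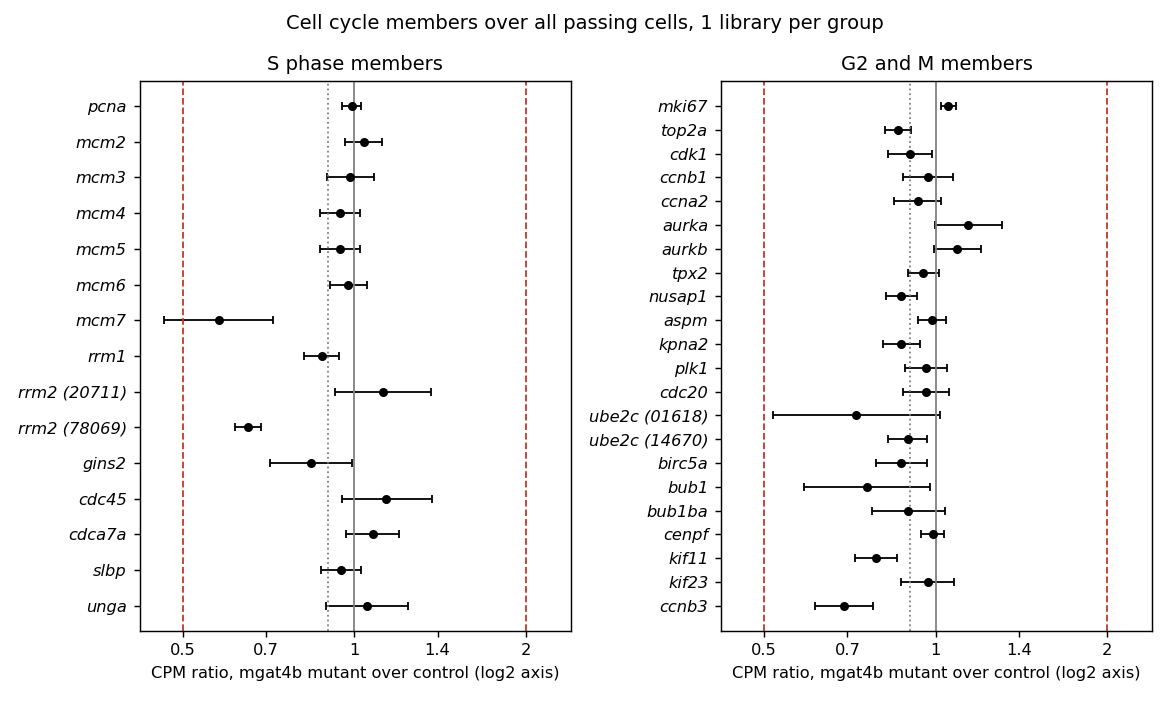
CPM ratio of each member row over all passing cells, *mgat4b* mutant over control, on a log2 axis, with 95% counting intervals as bars, S members on the left and G2 and M members on the right. The solid line marks a ratio of 1, the dotted line the median of all genes tested and the dashed lines the 2-fold limits of the size rule, which no row passed; *rrm2* (0.651) and *mcm7* (0.578) lie lowest.

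Of the G2 and M members, *mki67*, which coats mitotic chromosomes and is the usual proliferation marker, had 12096 UMIs in the mutant and 6457 UMIs in the control. Its 397 CPM in the mutant and 378 CPM in the control gave the only interval above 1 in either list (1.05, 1.02 to 1.08). *top2a*, the topoisomerase that untangles chromosomes, had 124 CPM in the mutant and 144 CPM in the control (0.858, 0.815 to 0.903). The mitotic kinase *cdk1* had 43.1 CPM in the mutant and 47.8 CPM in the control, a ratio of 0.901 (0.825 to 0.985). Its cyclin partners differed among themselves. *ccnb1* had 33.6 CPM in the mutant and 34.7 CPM in the control and *ccna2* 38.3 against 41.2, with intervals that included 1, while *ccnb3* had 21.1 CPM in the mutant and 30.6 CPM in the control, a ratio of 0.690 (0.614 to 0.776). Its TMM ratio was 0.761 (0.677 to 0.856).

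The kinases *aurka* (spindle poles), *aurkb* (centromeres) and *plk1* (mitotic entry and exit) had ratios of 1.14, 1.09 and 0.960, and none of the intervals excluded 1. *aurka* had 21.7 CPM in the mutant and 19.1 CPM in the control, *aurkb* 41.9 against 38.4 and *plk1* 48.2 against 50.2. *birc5a*, survivin, which works with *aurkb*, had 31.1 CPM in the mutant and 35.8 CPM in the control (0.871, 0.786 to 0.966). The spindle motor *kif11* had 44.2 CPM in the mutant and 56.3 CPM in the control, a ratio of 0.786 (0.723 to 0.855), and 0.867 (0.798 to 0.943) with TMM scaling. The motor of cytokinesis *kif23* had 30.1 CPM in the mutant and 31.1 CPM in the control, with an interval that included 1. Only *kif11*, *ccnb3* and *top2a* among the G2 and M rows had an interval below 1 under both scalings.

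Spindle assembly factors had ratios near those of the list. *tpx2*, which starts microtubules around chromosomes, had 92.4 CPM in the mutant and 97.1 CPM in the control, and *aspm*, at the spindle poles, 111 against 113, both with intervals that included 1. *nusap1*, a microtubule bundler, had 84.7 CPM in the mutant and 97.4 CPM in the control (0.870, 0.817 to 0.925), and *kpna2*, an importin, 59.6 against 68.5 (0.871, 0.809 to 0.938). Their TMM intervals included 1. At the kinetochore, *cenpf* had 169 CPM in the mutant and 171 CPM in the control. The checkpoint genes *bub1* and *bub1ba* had 4.83 and 15.9 CPM in the mutant, against 6.38 and 17.7 CPM in the control, with a ratio of 0.757 (0.587 to 0.979) for *bub1* on 256 UMIs in all and an interval that included 1 for *bub1ba*. Of the genes that drive the destruction of cyclins, *cdc20* had 39.8 CPM in the mutant and 41.4 CPM in the control. *ube2c* (ENSDARG00000114670) had 53.9 CPM in the mutant and 60.3 CPM in the control (0.893, 0.826 to 0.967). Its other row (ENSDARG00000101618), an identifier that the reference name table lists under another symbol, had 2.76 CPM in the mutant and 3.80 CPM in the control.

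Other genes of the cycle, from lists that hold no member, were summed over all cells in the same way. The mutant over control ratio was 0.957 (0.942 to 0.973) for the other S phase list and 0.970 (0.962 to 0.979) for the other G2 and M list. It was 1.04 (1.02 to 1.06) for the G1 list and 1.096 (1.08 to 1.11) for the cell cycle exit list, both on the other side of 1. These are ratios by library totals, without TMM scaling. In the exit list *ccng1* alone held 22019 of 69781 UMIs in the mutant and 8955 of 35741 in the control. In the G1 list *mycn* alone held 3027 of 25456 UMIs in the mutant and 920 of 13735 in the control. The excess of these 2 sums thus leans on single genes. None of the rows of the other S phase, other G2 and M, G1 or cell cycle exit lists passed the size rule, against the shares of all genes given above, and the median log2 ratios were -0.04 (39 rows), -0.10 (46 rows), 0.00 (24 rows) and -0.02 (15 rows). The replication genes with most UMIs, *chaf1a*, *dut* and *nasp*, had ratios of 1.02, 1.03 and 1.02, and the chromatin genes *hmgb2a*, *h2az2b* and *hmgb2b* of the G2 and M list 0.935, 1.098 and 0.964. In the G1 list *mycn*, a MYC transcription factor, had 99.4 CPM in the mutant and 53.8 CPM in the control, a ratio of 1.85 (1.71 to 1.99). The G1 cyclins *ccnd1* and *ccnd2a* had ratios of 1.03 and 1.14. Among exit genes *ccng1*, a p53 target, had 723 CPM in the mutant and 524 CPM in the control (1.38, 1.35 to 1.41), and the antiproliferative genes *btg1* and *btg2* had ratios of 1.11 and 0.949.

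The next comparison asked how many cells were cycling. A cell was counted as cycling if, after random thinning to 2000 UMIs, it held UMIs of at least 2 different S members or of at least 2 different G2 and M members. Thinning left out 706 mutant cells and 698 control cells that were too shallow. The share of cycling cells was about the same in both libraries, at 37.3% (35.6 to 39.0) of 3154 mutant cells and 36.0% (33.1 to 38.9) of 1073 control cells, and the ratio was 1.04 (0.945 to 1.14). Without thinning, over all 3860 mutant and 1771 control cells with the shallow ones kept, 49.2% of mutant cells and 45.8% of control cells passed. The S gate alone was passed by 25.5% of mutant cells and 24.0% of control cells, and the G2 and M gate by 24.0% and 22.9%. Cells past both gates made up 12.2% in the mutant and 11.0% in the control. With the class mix of both libraries together given to each, 36.6% of mutant cells and 37.2% of control cells would have been cycling.

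The share differed far more between classes than between libraries. Retinal progenitor-like cells led with 47 of 51 mutant cells (92.2%) and 16 of 17 control cells (94.1%). Neural progenitor-like cells followed in the mutant with 69.4% (62.8 to 75.5) of 216 cells, against 60.9% (48.4 to 72.4) of 69 control cells. Mesenchyme-like cells had 52.0% (47.0 to 56.9) in the mutant and 59.3% (50.5 to 67.6) in the control. Newborn neuron-like cells, named from proneural genes such as *neurog1* and *neurod4*, had 48.9% (41.4 to 56.4) in the mutant and 41.4% (28.6 to 55.1) in the control. By these shares many of them were cycling, so the name does not mean cells past their last division. At 2000 UMIs none of these 4 classes differed between the libraries beyond counting error. At 4000 UMIs the neural progenitor-like shares were 78.5% (150 of 191) in the mutant and 63.1% (41 of 65) in the control, a ratio of 1.25 (1.02 to 1.52). With classes taken from clusters the newborn neuron-like ratio lay on the other side of 1, at 0.649 (0.454 to 0.928), against 1.18 (0.840 to 1.66) from the marker gate. These are not the same cells. The cluster held 292 mutant and 153 control cells and the gated class 200 and 66, before thinning, and no cluster was named neuron. Among mutant cells the intervals of neural progenitor-like and mesenchyme-like cells do not overlap, while those of mesenchyme-like and newborn neuron-like cells do.

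Skin classes stood lower. Basal epidermis-like cells had 20.6% (16.1 to 25.8) of 286 cells in the mutant and 23.8% (16.5 to 32.3) of 122 cells in the control, and periderm-like cells 9.27% (6.03 to 13.5) and 12.4% (6.56 to 20.6). Of the rarer classes, endothelial-like cells had 29.8% in the mutant and 27.8% in the control, notochord and cartilage-like cells 28.3% and 22.2%, and myeloid-like cells 23 of 57 and 3 of 10. The control values of the first 2 classes rest on 18 and 36 cells. Erythroid-like cells had 27 of 44 mutant cells (61.4%) and 0 of 8 control cells, where a count of 0 leaves room for up to 37.5%. These 2 sets of cells were unlike, with a median of 1423 UMIs over all 123 erythroid-like mutant cells, of which 44 were deep enough, and of 24053 UMIs over the 8 control cells. Muscle-like cells had 4 of 76 in the mutant and 0 of 14 in the control (room for up to 21.4%). Unassigned cells, with too few markers of any class or no clear lead of one, had 54.7% in the mutant and 52.4% in the control.

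**Figure D2:**
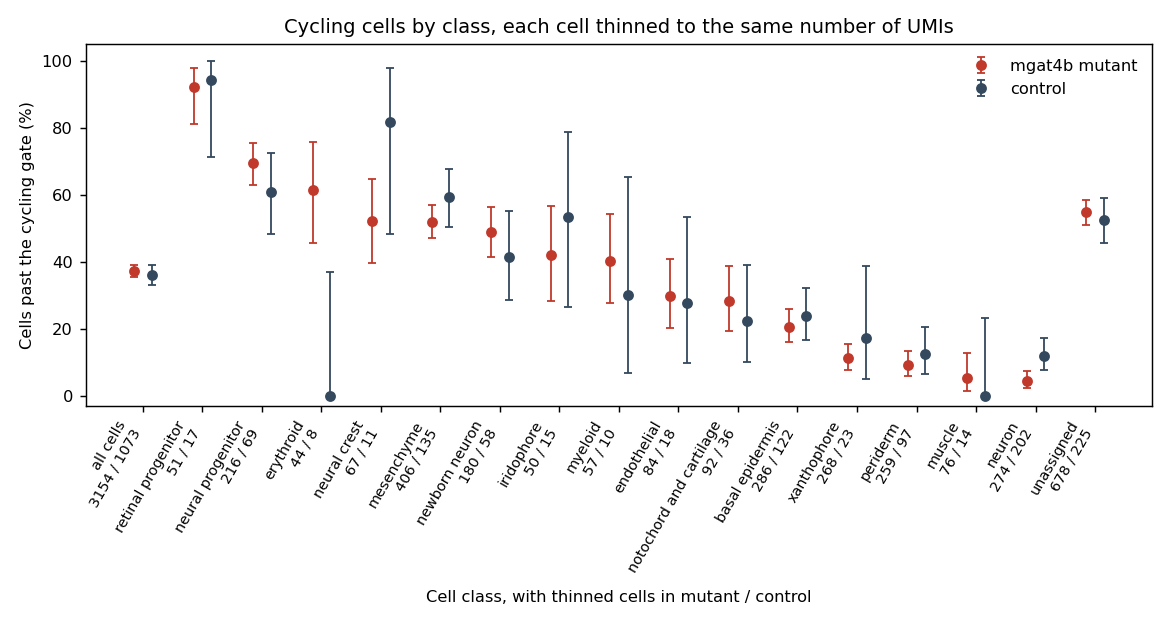
Share of cells past the cycling gate in percent, after thinning to 2000 UMIs, by marker class, for the *mgat4b* mutant (red) and the control (dark blue), with exact 95% binomial intervals as bars and the number of thinned cells in mutant and control under each name. Retinal progenitor-like cells lie at 92.2% and 94.1%, and neuron-like cells at 4.38% and 11.9%, the only class of at least 50 cells in each library whose ratio of shares excluded 1.

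Neuron-like cells, of a type that does not divide, served as the background of this gate. They had 12 of 274 mutant cells (4.38%, 2.28 to 7.53) and 24 of 202 control cells (11.9%, 7.76 to 17.2), which is a ratio of 0.369 (0.189 to 0.719). Without thinning, over all 330 mutant and 225 control neuron-like cells, 14.2% of mutant cells and 28.4% of control cells passed. The neuron-like cells past the gate were deep, with a median of 11236 UMIs in the mutant and 20188 in the control, against 5664 and 6993 UMIs for those that did not pass. This is not particular to neuron-like cells. Over all cells the medians of cells that passed and did not pass were 9492 and 6876 UMIs in the mutant, and 15446.5 and 10317 in the control. The part of doublets and of free RNA in the difference between the libraries was not tested. Read against this level, retinal and neural progenitor-like, mesenchyme-like and newborn neuron-like cells lay above the background in both libraries. Basal epidermis-like and xanthophore-like cells lay above it in the mutant, but their intervals overlapped it in the control. Periderm-like cells overlapped it in both libraries, and muscle-like cells in the mutant. Overlap of intervals is not a test of a difference, so none of these overlaps shows a share equal to background. At 4000 UMIs the background was 8.33% (5.01 to 12.9) in the mutant and 20.5% (14.3 to 28.0) in the control, and some of these readings changed. Basal epidermis-like cells then lay above it in the control too, at 43.6% (34.2 to 53.4), while xanthophore-like cells of the mutant overlapped it, at 16.1% (11.2 to 22.2).

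Cells of the pigment lineages, in which *mitfa* is active, were few in the control. Of xanthophore-like cells 30 of 268 (11.2%, 7.68 to 15.6) were cycling in the mutant and 4 of 23 (17.4%, 4.95 to 38.8) in the control. Iridophore-like cells had 21 of 50 (42.0%) in the mutant and 8 of 15 (53.3%) in the control, and neural crest-like cells 35 of 67 (52.2%, 39.7 to 64.6) and 9 of 11 (81.8%, 48.2 to 97.7). The shares were lower in the mutant in all 3 classes, with overlapping intervals in each. Summed S members had 218 CPM in mutant and 376 CPM in control xanthophore-like cells, 953 and 1327 CPM in iridophore-like cells and 802 and 1886 CPM in neural crest-like cells. Summed G2 and M members had 220 and 273, 854 and 797, and 2404 and 2426 CPM in mutant and control cells of the same classes. The control sums rest on few cells: 1 of the 11 neural crest-like control cells held 51.4% of the G2 and M UMIs, and 1 of the 28 xanthophore-like control cells held 47.5%. The melanophore-like cells had 2 of 13 cycling in the mutant and 2 of 3 in the control.

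The third comparison took the summed lists within each class of at least 50 cells in each library. Here a few cells held much of many sums. Over all cells, 50% of the S UMIs lay in 250 mutant cells and 83 control cells, and 50% of the G2 and M UMIs in 174 mutant cells and 53 control cells. In basal epidermis-like cells 50% of the G2 and M UMIs lay in 7 mutant cells and 4 control cells, in periderm-like cells in 5 and 3, and in neuron-like cells in 3 and 3. The counting intervals treat UMIs as independent and are too narrow for such sums. Each ratio is therefore given for all cells of the class and then without the 1 cell, and without the 5% of cells, with most UMIs of the list in each library. A fixed number of cells is a larger part of the control classes, which held fewer cells, so removing it can lower the control sum more. The 5% is the same part of each library.

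In mesenchyme-like cells the S list had 1016 CPM in the mutant and 1154 CPM in the control, a ratio of 0.880 that was 0.904 without 1 cell and 0.885 without 5% of cells. Their G2 and M list had 2036 CPM in the mutant and 2550 CPM in the control, a ratio of 0.798 that was 0.846 and 0.816. In neural progenitor-like cells S members were higher in the mutant, at 1802 CPM against 1451 CPM in the control (1.24, 1.17 to 1.32), and 1.296 and 1.37 without 1 cell and 5% of cells. G2 and M members were lower there, at 3654 CPM in the mutant and 4439 CPM in the control (0.823, 0.793 to 0.855), and 0.829 and 0.728 without them. At 2000 UMIs the ratio of cells past each gate included 1 (1.29, 0.943 to 1.76 for S, and 1.05, 0.790 to 1.38 for G2 and M). At 4000 UMIs the S gate was passed by 132 of 191 mutant cells (69.1%, 62.0 to 75.6) and 30 of 65 control cells (46.2%, 33.7 to 59.0), a ratio of 1.497 (1.13 to 1.98), while the G2 and M ratio of 1.099 (0.852 to 1.42) included 1.

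In newborn neuron-like cells the S ratio was 0.850 from 1154 CPM in the mutant and 1357 CPM in the control, then 0.931 (0.853 to 1.02) without 1 cell and 0.919 (0.826 to 1.02) without 5% of cells, and these intervals included 1. The G2 and M ratio was 1.22 from 4701 CPM in the mutant and 3861 CPM in the control, then 1.34 and 1.502. A single control cell held 20.4% of the S UMIs of the 66 control cells. With classes taken from clusters instead of markers the S ratio was 0.627 and the G2 and M ratio 0.794, so the G2 and M list lay on the other side of 1 with that naming. The cluster was a larger set of cells than the gated class, as given above.

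In basal epidermis-like cells both summed lists were lower in the mutant. S members had 352 CPM in the mutant and 469 CPM in the control (0.752, then 0.728 and 0.647 without 1 cell and 5% of cells). G2 and M members had 545 CPM in the mutant and 830 CPM in the control (0.657, then 0.636 and 0.783). A single mutant cell held 22.4% of the G2 and M UMIs and a single control cell 19.8%. The shares of cells past the gates did not follow these sums. The S gate took 33 of 286 mutant and 14 of 122 control cells, a ratio of 1.01 (0.558 to 1.81). The G2 and M gate took 38 and 15 of them, a ratio of 1.08 (0.618 to 1.89). At 4000 UMIs the S gate took 53 of 231 mutant and 35 of 110 control cells, a ratio of 0.721 (0.502 to 1.04). The G2 and M ratio was then 0.932 (0.595 to 1.46). Both lay below 1, as the sums did, with intervals that included 1. Periderm-like cells had the lists in opposite directions. Their S members had 160 CPM in the mutant and 349 CPM in the control (0.459, then 0.531 and 0.415), and their G2 and M members 445 CPM in the mutant and 249 CPM in the control (1.79, then 1.94 and 1.04). Without 5% of cells the G2 and M interval of 0.818 to 1.32 included 1. The share of periderm-like cells past the G2 and M gate did not follow, with 15 of 259 mutant cells (5.79%) and 8 of 97 control cells (8.25%), a ratio of 0.702 (0.308 to 1.60). The G2 and M sum of this class thus lay above 1 and the ratio of G2 and M shares below 1, the latter with wide intervals that included 1.

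Neuron-like cells had the lowest ratios. S members had 86.3 CPM in the mutant and 328 CPM in the control (0.263, then 0.280 and 0.507 without 1 cell and 5% of cells), and G2 and M members 275 CPM in the mutant and 662 CPM in the control (0.416, then 0.432 and 0.634). A single control cell of 225 held 28.6% of the G2 and M UMIs, and a single mutant cell of 330 held 24.6%. Here the share of cells past the gates differed in the same direction. The S gate took 3 of 274 mutant and 13 of 202 control cells, a ratio of 0.170 (0.0491 to 0.589). The G2 and M gate took 9 and 16 of them, a ratio of 0.415 (0.187 to 0.919). The gates count UMIs of the same members in the same cells, so these shares are no separate support for the sums.

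**Figure D3:**
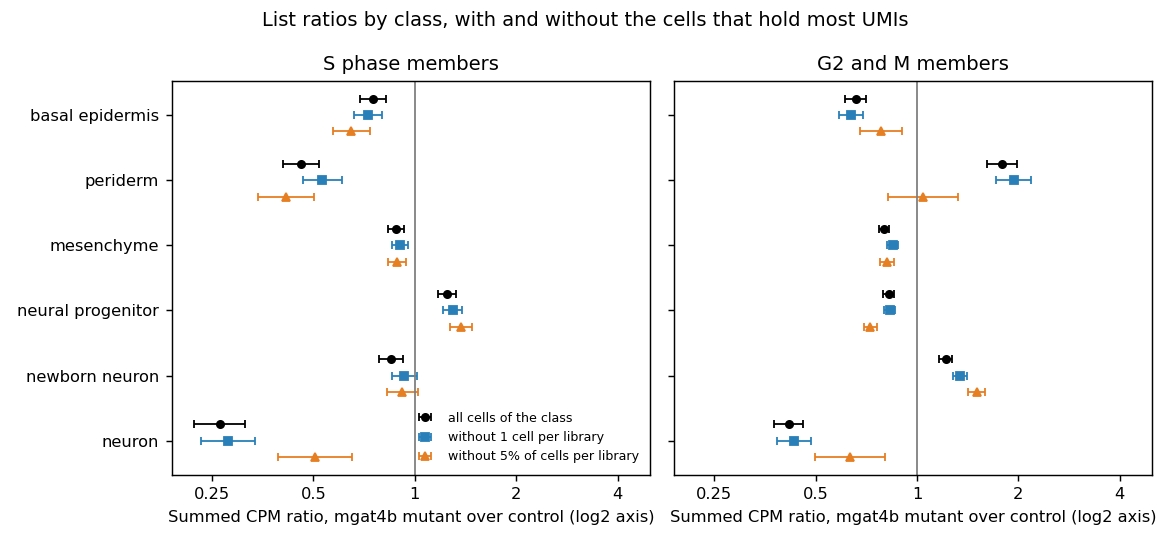
Summed CPM ratio of the S members (left) and the G2 and M members (right), *mgat4b* mutant over control on a log2 axis, in the 6 classes of at least 50 cells per library, for all cells of the class (black circles) and without the 1 cell (blue squares) or the 5% of cells (orange triangles) with most UMIs of the list in each library. Bars are 95% counting intervals. Without 5% of cells the G2 and M ratio of periderm-like cells moves to 1.04 and the ratios of neuron-like cells to 0.507 (S) and 0.634 (G2 and M).

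Single members passed the size rule in 4 of the 6 classes. In neuron-like cells 7 of 8 S rows and 7 of 12 G2 and M rows with at least 50 UMIs were lower in the mutant and none was higher. Of 8586 genes there, 6.46% were lower and 2.75% higher. Several of the member rows, such as *mcm2*, reached 50 UMIs mainly through the control, so the count is no separate support for a difference. *pcna* had 31 UMIs in the mutant and 166 UMIs in the control (0.238), *mcm2* 7 and 70 (0.127), *rrm2* 14 and 121 (0.147) and *mki67* 102 and 388 (0.335). The others were *mcm4*, *mcm5*, *mcm6*, *rrm1*, *ccnb1*, *nusap1*, *aspm*, *plk1*, *cenpf* and *kif11*, with ratios from 0.162 to 0.424. Without the cell with most UMIs of the gene in each library, 5 of the S and 4 of the G2 and M members still passed. In periderm-like cells *mcm3*, *mcm4*, *mcm5*, *mcm6* and *rrm2* were lower in the mutant (0.203 to 0.467) and 3 of them passed without the top cell. *tpx2*, *aspm*, *ube2c*, *birc5a* and *cenpf* were higher (2.11 to 3.54), of which 4 passed without it. There 3.99% of 5690 genes were lower and 3.55% higher, and 8 S rows and 13 G2 and M rows had at least 50 UMIs.

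In basal epidermis-like cells *nusap1*, *kpna2* and *kif11* were lower (0.462, 0.455 and 0.439), where 3.40% of 7024 genes were lower and 2.36% higher, and only *kif11* passed without the top cell. In neural progenitor-like cells *cdc45* was higher, with 57 UMIs in 41 of the mutant cells and 16 UMIs in 12 of the control cells, a ratio of 2.05 that was 2.21 without the top cell. There 3.83% of 6285 genes were higher and 7.51% lower, so 1 of 34 rows with enough UMIs is within that background. No member passed in mesenchyme-like cells, where 2.23% of 8736 genes were higher and 2.55% lower, nor in newborn neuron-like cells, where 3.09% of 4816 genes were higher and 5.50% lower.

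Only some rows had 50 UMIs in a class, and the medians over these rows are a description of them and not of the whole lists. The floor counts both libraries together, so a row with few UMIs in 1 library enters through the other. In neuron-like cells rows such as *mcm2* (7 mutant and 70 control UMIs) and *mcm4* (8 and 49) entered mainly through the control. The medians of that class, and its count of rows past the size rule, are therefore no separate support for a difference. In neuron-like cells the median log2 ratio was -2.14 over 8 S rows and -1.28 over 12 G2 and M rows, beside -0.05 for all genes tested there. In periderm-like cells it was -1.11 over 8 S rows and 0.85 over 13 G2 and M rows, beside -0.05. Neural progenitor-like cells had 0.47 over 14 S rows and -0.34 over 20 G2 and M rows, beside -0.09. The lists thus lay on opposite sides of all genes in these last 2 classes, and in reverse of each other. In periderm-like cells rows such as *aspm* (85 mutant and 17 control UMIs) and *rrm2* (43 and 150) also entered mainly through 1 library. The medians of periderm-like cells, and their counts past the size rule, are thus no separate support either. Without 5% of cells, the interval of their summed G2 and M ratio included 1, as given above. Basal epidermis-like cells had -0.52 over 10 S rows and -0.64 over 18 G2 and M rows, beside -0.06, and mesenchyme-like cells -0.14 over 13 and -0.30 over 20, beside -0.05. Newborn neuron-like cells lay nearest to all genes, with -0.03 over 10 S rows and 0.16 over 20 G2 and M rows, beside -0.09.

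The main *rrm2* row was followed through the classes, since it had the lowest ratio of the rows with at least 1000 UMIs. It was chosen after its values were seen. It had 34.5 CPM in the mutant and 54.7 CPM in the control in basal epidermis-like cells (ratio 0.631), 15.4 and 75.6 CPM in periderm-like cells (0.203) and 107 and 203 CPM in mesenchyme-like cells (0.528). In neural progenitor-like cells it had 285 CPM in the mutant and 314 CPM in the control, a ratio of 0.908 (0.789 to 1.05) that counting error does not separate from 1. Newborn neuron-like cells had 354 CPM in the mutant and 489 CPM in the control (0.724), and neuron-like cells 7.46 and 50.6 CPM (0.147). The ratio was below 1 in each of these 6 classes. Of the smaller classes it was also below 1 in retinal progenitor-like (0.794), iridophore-like (0.449), endothelial-like (0.393), notochord and cartilage-like (0.400), xanthophore-like (0.194) and neural crest-like cells (0.177). It was above 1 in erythroid-like (2.21) and myeloid-like cells (1.63), on 10 and 6 control UMIs. All classes come from the same pair of libraries and are not replicates of the difference. A UMI of *rrm2* was present in 12.7% of thinned mutant cells and 15.8% of thinned control cells.

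Other genes of the cycle passed the size rule in some classes. *mycn* was higher in basal epidermis-like cells, with 47.7 CPM in the mutant and 12.5 CPM in the control (3.83), and in mesenchyme-like cells, with 148 and 57.1 CPM (2.59). *myca*, another MYC factor, was higher in neural progenitor-like cells (2.48) and in newborn neuron-like cells (3.67). Neural progenitor-like cells also had more *cdkn1a*, the p21 inhibitor of cyclin-dependent kinases, with 89.6 CPM in the mutant and 32.7 CPM in the control (2.74), and more *cdca7b* (2.01). *ccnd2a* was higher in newborn neuron-like cells (2.59) and lower in neuron-like cells (0.479). In neuron-like cells the chromatin gene *hmgb2a* had 211 CPM in the mutant and 625 CPM in the control (0.338), and *nasp*, *chaf1a*, *cdc25b*, *ccnd1* and *btg2* were lower too, with ratios from 0.192 to 0.499. In basal epidermis-like cells *pola1* (0.443) and *kif20a* (0.399) were lower. The UMI floor for these genes also counts both libraries together. In neuron-like cells *nasp* (16 mutant and 106 control UMIs) and *ccnd1* (21 and 97) reached it mainly through the control. In newborn neuron-like cells *ccnd2a* (92 and 19) and *myca* (185 and 27) reached it mainly through the mutant. Such genes are no separate support for a difference.

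The balance of the lists was taken as the S members' share of all member UMIs. Over all cells it was 35.2% (34.9 to 35.6) in the mutant and 36.2% (35.7 to 36.7) in the control. Classes differed more. It was 46.4% in the mutant and 44.7% in the control in retinal progenitor-like cells, and 19.7% and 26.0% in newborn neuron-like cells, where G2 and M members made up most of the UMIs. In neural progenitor-like cells it was 33.0% (32.1 to 34.0) in the mutant and 24.6% (23.6 to 25.7) in the control, a difference of 8.39 percentage points that was 13.5 without the 5% of cells with most member UMIs. In periderm-like cells it was 26.5% in the mutant and 58.4% in the control, a difference of -31.9 points, and -23.8 without 5% of cells. Basal epidermis-like cells had 39.2% in the mutant and 36.1% in the control and mesenchyme-like cells 33.3% and 31.2%. Without 5% of cells the first difference, of 3.16 points, changed sign to -6.09, and the second, of 2.14, was 1.73 with an interval that included 0. The shares of neuron-like cells were 23.9% in the mutant and 33.1% in the control, a difference of -9.25 points, and -2.93 (-10.6 to 4.77) without 5% of cells.

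Within a list the mix of members also varied by class. With its rows summed, *rrm2* held 33.6% (31.3 to 36.0) of the S UMIs of newborn neuron-like cells in the mutant and 38.6% (35.5 to 41.7) in the control, against 10.8% and 12.6% in basal epidermis-like cells. Without 5 cells the newborn neuron-like values were 32.3% and 38.6%. In the same cells *slbp* held 12.6% in the mutant and 10.6% in the control, against 5.07% and 2.15% in basal epidermis-like cells. *mcm2* went the other way, with 3.56% and 2.46% in newborn neuron-like cells of mutant and control, against 12.4% and 10.0% in basal epidermis-like cells. *pcna* held 20.3% and 21.7% in newborn neuron-like cells and 29.96% and 32.5% in retinal progenitor-like cells. Against basal epidermis-like cells, newborn neuron-like cells thus held relatively more *rrm2* and *slbp* and less *mcm2* in both libraries. They held less *pcna* than retinal progenitor-like cells. This does not set them apart from all classes. In neuron-like cells *slbp* held 42 of 162 S UMIs in the mutant and 83 of 783 in the control, and *pcna* 31 and 166 of them.

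Among G2 and M members *nusap1* held 9.14% (8.44 to 9.88) of the list in newborn neuron-like cells of the mutant and 8.73% (7.71 to 9.84) in the control, against 2.28% and 3.23% in basal epidermis-like cells. Neural progenitor-like cells lay near the newborn neuron-like ones, with 488 of 6607 UMIs in the mutant and 399 of 4614 in the control. *ube2c* held more in skin, with its row ENSDARG00000114670 alone at 8.11% and 6.88% in periderm-like cells and 5.69% and 5.95% in basal epidermis-like cells of mutant and control, against 1.87% and 2.55% in retinal progenitor-like cells. *birc5a* held 4.27% in the mutant and 5.32% in the control in basal epidermis-like cells, against 0.877% and 1.22% in retinal progenitor-like cells. *cdk1* held 4.27% and 4.74% in basal epidermis-like cells of mutant and control, against 1.89% and 1.84% in newborn neuron-like cells. *mki67* held 31.1% and 31.3% of the list in retinal progenitor-like cells. The part held by *rrm2* was lower in the mutant in each of the 7 classes plotted. For example, it was 11.4% in the mutant and 18.4% in the control in mesenchyme-like cells, and 17.7% and 23.0% in neural progenitor-like cells. The intervals overlapped in basal epidermis-like and newborn neuron-like cells. *rrm2* was picked for its low ratio, and these parts restate largely the same UMIs, so they are no separate support for it.

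**Figure D4:**
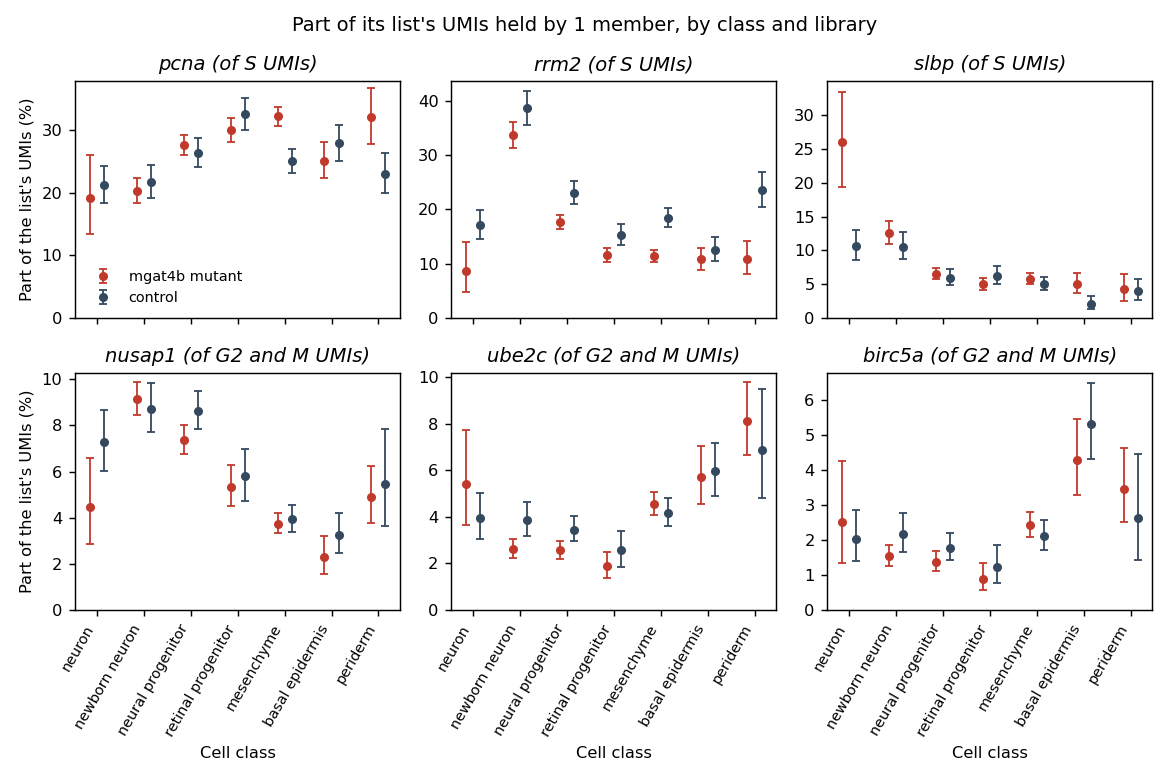
Part of a list's UMIs held by 1 member in percent, in 7 classes, for the *mgat4b* mutant (red) and the control (dark blue), with exact 95% binomial intervals as bars; *pcna*, *rrm2* and *slbp* are given as parts of the S UMIs and *nusap1*, *ube2c* and *birc5a* as parts of the G2 and M UMIs, with both *rrm2* rows summed and the main *ube2c* row alone. *rrm2* peaks in newborn neuron-like cells (33.6% and 38.6%) and *birc5a* in basal epidermis-like cells (4.27% and 5.32%).

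The last description asked whether the members of a list were found in the same cells. For each pair the number of cells with both genes was divided by the number that the single shares within each class would give, in cells thinned to 4000 UMIs (2652 mutant and 940 control cells). Pairs within the G2 and M list had a median of 2.73 in the mutant and 2.75 in the control, and pairs within the S list 1.76 and 1.94. Pairs of 1 S and 1 G2 and M member had 0.988 in the mutant and 1.11 in the control. In both libraries the partner with the highest value lay in the member's own list for 14 of 14 S members and 21 of 21 G2 and M members. Depth and unequal division rates within a class enter every such value, so a median near 1 between the lists is a level beside the others and not a measure of independence.

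Cyclins and spindle genes were among the closest G2 and M pairs. *cdc20* and *ccnb3* had 3.68 in the mutant and 3.55 in the control, *ccnb1* and *ccnb3* 3.49 and 4.18, and *kpna2* and *kif11* 3.79 and 3.44. Among S pairs *mcm2* and *cdca7a* had 2.60 in the mutant and 2.92 in the control, *cdc45* and *slbp* 2.47 and 3.01, and the helicase subunits *mcm5* and *mcm6* 2.42 and 2.49. *rrm2* had its highest values within S, 2.33 with *unga* in the mutant and 2.69 with *cdc45* in the control. Some of its mixed pairs came near these. With *ccna2*, the cyclin of S phase and G2, *rrm2* had 1.93 in the mutant and 2.18 in the control, and with *kif23* 1.99 and 2.07. These 2 pairs were picked, and its other mixed pairs are not given. Of the 294 mixed pairs, 292 in the mutant and 282 in the control had at least 3 cells reckoned from the shares. Among the lowest of these, *gins2* had 0.445 beside *kif11* in the mutant (7 cells) and 0.293 beside *cenpf* in the control (3 cells). No mutant cell held both *gins2* and *bub1*, where 3.36 were reckoned from the shares. Nor did any control cell hold both *unga* and *bub1ba*, where 3.28 were reckoned. Such low values rest on few cells.

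**Figure D5:**
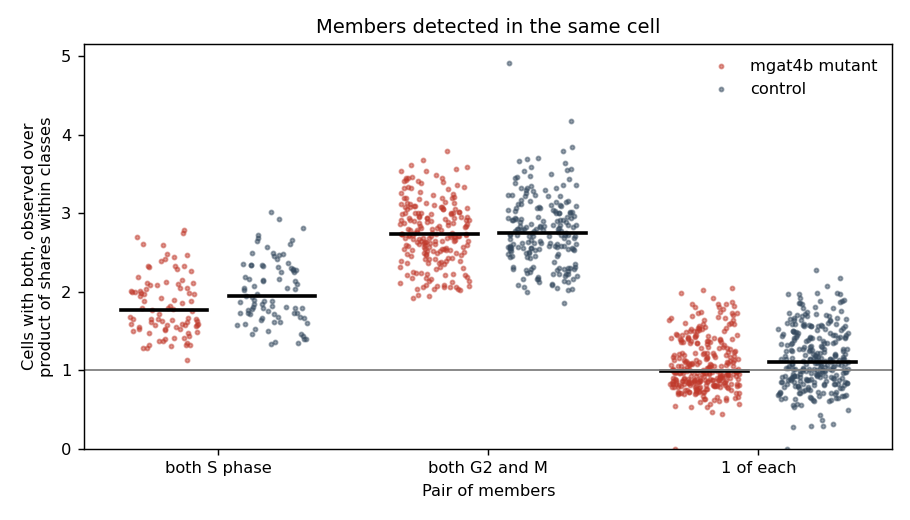
Cells with both genes of a pair, as observed number over the number given by the single shares within classes, for pairs of S members, pairs of G2 and M members and pairs with 1 of each, in the *mgat4b* mutant (red) and the control (dark blue), each point 1 pair and each black bar the median. The medians are 1.76 and 1.94 for S pairs, 2.73 and 2.75 for G2 and M pairs, and 0.988 and 1.11 for mixed pairs.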

How the data were processed

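The labels give 1 sample each for the *mgat4b* mutant and the control. The deposited matrices hold UMI counts per gene and cell barcode, which the authors made with Cell Ranger 7.2.0 against Ensembl GRCz11; the counts are whole numbers, not normalized. Cells with over 200 genes and under 5% mitochondrial UMIs were kept, the filter of the study. Totals in passing cells came to 30447310 UMIs in the mutant and 17088324 in the control, with 1 library per group, so values carry counting error only.

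The 35 members, the other gene lists and the class markers were chosen with earlier results of these data known. Every member is given, and of each other list the 3 genes with most UMIs and, per direction, up to 3 past the size rule with at least 100 UMIs. Classes came from a marker gate whose scoring was set after the files were seen: a cell took the class with at least 3 markers raised over 3 times their mean share and a lead of at least 2 markers over every other class. Levels are CPM of summed UMIs, ratios have exact conditional binomial intervals, sums exact Poisson, shares exact binomial (Clopper-Pearson) and ratios of shares Katz intervals, at 95%. Log2 medians used a prior of 0.5 UMI. Cycling shares used cells thinned at random to 2000 UMIs, with 4000 as an alternative. Doublets were kept, since Scrublet (scanpy 1.11.5) called 0 mutant cells and 1 control cell and so had not worked; leaving out the 127 mutant and 27 control cells of highest score was an alternative. TMM factors came from edgeR 4.0.16 (R 4.3.3). Simulated data with known changes were used to test the size rule. Alternatives covered scaling, thinning, gates, filters, classes from Leiden clusters (resolution 1, cell cycle genes left out), doublets and single genes. Those without unassigned cells, without the top 1 or 5 cells or top 5% of cells, and without high Scrublet scores by class were chosen after seeing the data. Planned descriptions of promoter motifs and protein sequences were not made, and no coordinates are given, because no GRCz11 annotation was used here.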

Additional observations from a re-analysis of the deposited data

How the results depend on the processing

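Beside the 28 results as reported, 183 values were computed under other settings, of which 112 moved little, 61 moved and 10 turned direction. Over all cells, TMM scaling gave 1.01 for S and 1.05 for G2 and M members (turned), totals without mitochondrial and ribosomal protein genes 0.955 and 0.997, and leaving out the member with most UMIs 0.885 and 0.921. The mean of per-cell CPM turned G2 and M to 1.11; without high Scrublet scores it was 0.974, and with mutant cells drawn to the control number 0.973. Without unassigned cells, S was 0.870. At a fold of 1.5 the size rule took 2 members, both lower. The cycling share ratio over all cells stayed between 0.993 and 1.07.

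By class, leaving out 5 cells takes a larger part of the control classes. By itself this can move a ratio up, though not every ratio rose, so its values are given without a reading. They were, for S, 0.683 (basal epidermis-like), 0.662 (periderm-like), 0.985 (mesenchyme-like), 1.61 (neural progenitor-like), 1.34 (newborn neuron-like, turned) and 0.392 (neuron-like), and for G2 and M 0.838 (basal epidermis-like), 3.33 (periderm-like), 0.984 (mesenchyme-like), 2.30 (newborn neuron-like) and 0.340 (neuron-like). S share differences were then -9.27 points in basal epidermis-like (turned), -2.68 in mesenchyme-like (turned), -16.5 in newborn neuron-like and 1.16 in neuron-like cells (turned). Leaving out 5% of cells moved S to 0.647 (basal epidermis-like), 1.37 (neural progenitor-like) and 0.507 (neuron-like), G2 and M to 0.783 (basal epidermis-like), 1.04 (periderm-like), 0.728 (neural progenitor-like), 1.502 (newborn neuron-like) and 0.634 (neuron-like), and S share differences to -6.09 (basal epidermis-like, turned), -23.8 (periderm-like), 13.5 (neural progenitor-like), -15.0 (newborn neuron-like) and -2.93 points (neuron-like). Without 1 cell, S moved to 0.531 in periderm-like and 0.931 in newborn neuron-like cells, and G2 and M to 0.846 in mesenchyme-like and 1.34 in newborn neuron-like cells. Without high Scrublet scores, S was 0.671 in basal epidermis-like and 0.529 in periderm-like cells, and G2 and M 0.604 (basal epidermis-like), 2.01 (periderm-like), 1.47 (newborn neuron-like) and 0.240 (neuron-like).

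Classes by clusters gave S ratios of 0.564 in basal epidermis-like and 0.627 in newborn neuron-like cells, and G2 and M ratios of 0.574 in basal epidermis-like, 1.47 in periderm-like, 0.687 in mesenchyme-like, 0.879 in neural progenitor-like and 0.794 (turned) in newborn neuron-like cells. They gave a newborn neuron-like cycling ratio of 0.649, on the other side of 1 from the 1.18 reported, whose interval included 1, and S share differences of -0.41 points (basal epidermis-like, turned) and 4.996 points (mesenchyme-like). No cluster was named neuron, so neuron-like cells had no value under this setting. The newborn neuron-like cluster was a larger set of cells than the gated class. The stricter marker gate gave 1.37 for S in neural progenitor-like cells, and TMM within classes 1.35 (S) and 0.892 (G2 and M) there and 1.31 (G2 and M) in newborn neuron-like cells. Without the top member, S was 0.405 in periderm-like and 0.796 in mesenchyme-like cells, G2 and M 0.607 in basal epidermis-like and 0.741 in neural progenitor-like cells, and S share differences 0.0976, 10.1 and -3.79 points in mesenchyme-like, neural progenitor-like and newborn neuron-like cells. Thinning to 4000 UMIs gave a mesenchyme-like cycling ratio of 1.05, on the other side of 1 from the 0.877 reported, whose interval included 1. Neither of these 2 is among the 10 that turned. The cause of these moves was not tested.

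No paired analysis was possible because each group has 1 library. That also means no library can be left out. Values of classes with under 50 cells in a library are levels only.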

Other observations

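Cells under 1000 UMIs, which the thinned shares leave out, held member UMIs too. In the 356 such mutant cells and 535 such control cells the S members summed to 758 CPM (654 to 873) in the mutant and 911 CPM (817 to 1014) in the control, and the G2 and M members to 1575 CPM (1424 to 1738) in the mutant and 1041 CPM (939 to 1150) in the control. Otic-like cells, with 23 mutant cells and 6 control cells, had S members at 951 CPM in the mutant and 2630 CPM in the control and G2 and M members at 1747 CPM in the mutant and 473 CPM in the control. With so few cells these are values of single cells more than of a class.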
